A study of Mus musculus with 6 samples.

Results

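The genes described here encode subunits of voltage-gated calcium channels in the brain of mice lacking Gb5, the G protein beta subunit encoded by Gnb5. The set holds 10 genes: the pore-forming subunits Cacna1a, Cacna1b, Cacna1c, Cacna1d, Cacna1e, Cacna1g and Cacna1h, the beta subunit Cacnb4, and the alpha2delta subunits Cacna2d1 and Cacna2d2. They were taken by name, with every probe that the platform annotation pairs with that symbol alone, which gave 28 of 34945 single-gene probes (10 of 18193 genes). The rule for taking probes used no measured value, but the members were chosen with earlier results of these data known. No probe annotated to several genes includes one of them.

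RNA was measured on single-colour Affymetrix arrays, 3 from Gb5-deficient mice (knockout arrays 4, 5 and 6) and 3 from wild-type mice (wild-type arrays 1, 2 and 3). The series title places the tissue in the cerebellum and the sample labels call it brain. The study's design text calls them biological replicates, and the labels state that age- and sex-matched littermates were used. They give no age, no strain and no statement of which mice shared a litter, and they do not describe how the Gb5 gene was disrupted.

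Voltage-gated calcium channels open when a neuron depolarises and admit calcium that drives transmitter release, dendritic spikes and gene expression. The pore subunit sets the channel type, while beta and alpha2delta subunits help carry the pore to the membrane and tune its gating. Free G protein beta-gamma dimers bind the P/Q-, N- and R-type pores and inhibit them, which is how many inhibitory receptors reduce transmitter release. In the cerebellum, P/Q-type channels carry most of the calcium current of Purkinje cells, and mouse mutations in Cacna1a (tottering, leaner), Cacnb4 (lethargic) and Cacna2d2 (ducky) cause ataxia.

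Gnb5 itself separated the genotypes. Its brighter probe read 3.65, 3.36 and 2.96 (log2 signal) on knockout arrays 4, 5 and 6, against 8.80, 8.51 and 8.70 on wild-type arrays 1, 2 and 3 (limma adjusted p = 1.12e-05). Cerebellar markers gave strong signal: the brightest probes of the 5 Purkinje cell genes measured lay between the 94.4th and 99.9th percentile of all probe means, and the 6 granule cell genes between the 77.6th and 99.7th. Those of 3 forebrain genes lay between the 27.9th and 58.4th percentile and those of 3 brainstem genes between the 12.7th and 78.0th. Probes differ in brightness, so these percentiles do not compare levels between genes. The mean of the red blood cell genes Alas2 and Slc4a1 was 6.42 to 6.85 on the knockout arrays and 7.57 to 9.17 on the wild-type arrays. None of their probes passed, and the part of blood in the results below was not tested. The choroid plexus gene Ttr read 11.69 on knockout array 4 and from 13.38 to 13.79 on the other 5 arrays. F5, Folr1 and Kl, of the same marker list, were also lowest on knockout array 4, while Clic6 was not. The part of choroid plexus in the results below was not tested. Knockout array 6 stood apart in sex-linked genes and in Gapdh. The probe of the Y-linked gene Eif2s3y read 11.80 there and from 3.19 to 3.43 on the other 5 arrays, although the labels state that the mice were sex-matched. The probes of the X-linked gene Xist read from 6.27 to 8.22 there and from 10.76 to 11.64 on the other 5 arrays. The part of sex in the results below was not tested. For Gapdh the 3′ control probe exceeded the 5′ one by 1.58 on knockout array 6 and by 1.03 to 1.14 on the rest. Without it the 28 subunit probes described below had a median log2 fold change, knockout minus wild type, of 0.04, with 16 above and 12 below 0, and 2 of them changed sign. Single values that rest on that array are given without it where they are described.

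No calcium channel subunit changed past the threshold in Gb5-deficient brain. Of the 28 probes, 0 passed a limma adjusted p of 0.05, and the smallest adjusted p was 0.644. Over all 45037 probes, 10 passed (0.0222%), 1 higher and 9 lower in knockout. At an unadjusted limma p under 0.05, 1 of the 28 passed, against 7.61% of all probes. In 1 of the 28, the same probe, of Cacna1g, the knockout and wild-type arrays did not overlap, against 13.6% of all probes. The share of member probes was 3.57% by both counts, which rest on that same probe. So small a count was not read as a difference from all probes.

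The differences were small in both directions. Log2 fold changes, knockout minus wild type, ran from -0.31 to 0.33 over the 28 probes, with 16 above and 12 below 0. Their median was 0.05, against 0.01 over all probes, and their median absolute value was 0.13, against 0.10 over all probes. Precision limits what could be seen: the median SE of a member probe was 0.14, and the 95% intervals reached from -0.86 to 0.79 at their widest. In bulk tissue, fewer cells of a type and less RNA per cell cannot be told apart.

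**Figure D1:**
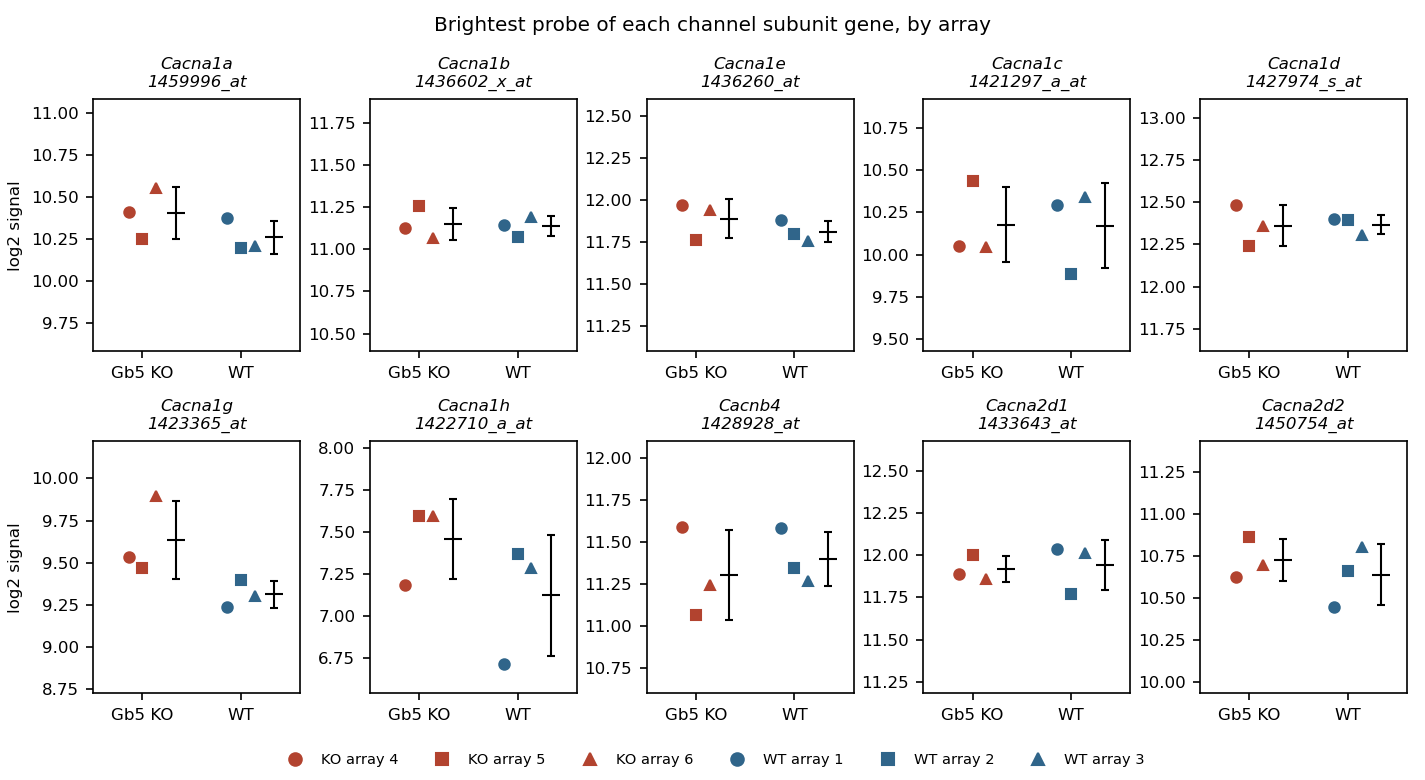
Log2 signal of the brightest probe of each of the 10 genes on each array, with knockout arrays left of wild-type arrays in every panel; bars give the mean ± SD of 3 arrays, and every panel spans the same height on its log2 axis. The genotypes overlap in 9 panels, and only the Cacna1g panel has all 3 knockout arrays above the 3 wild-type arrays.

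Cacna1a encodes the pore of the P/Q-type channel, the main presynaptic calcium channel of the cerebellum and a direct target of beta-gamma dimers. Its brightest probe, 1459996_at, read 10.41, 10.25 and 10.55 on knockout arrays 4, 5 and 6, against 10.37, 10.20 and 10.21 on wild-type arrays 1, 2 and 3. Knockout array 6 was highest and wild-type array 2 lowest, and the genotypes overlapped. The log2 fold change was 0.14 (SE 0.10; limma adjusted p = 0.736). Its 95% interval, from -0.09 to 0.38, corresponds to a knockout level of 0.940 to 1.30 times the wild-type level.

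The other Cacna1a probes gave 0.16 (1430408_at), 0.24 (1450510_a_at) and -0.13 (1444455_at), none past the threshold. All 3 probes with positive values were highest on knockout array 6. The 4th, 1444455_at, was lowest on that array, at 4.74, and lay at the 32.7th percentile of all probe means, the dimmest of the 4. Without knockout array 6 the log2 fold changes were 0.07 (1459996_at), 0.04 (1430408_at), 0.18 (1450510_a_at) and -0.07 (1444455_at).

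Cacna1b encodes the N-type pore, which works beside the P/Q type at nerve terminals and is the classical target of beta-gamma inhibition. Probe 1436602_x_at read 11.12, 11.26 and 11.07 on the knockout arrays, against 11.15, 11.07 and 11.19 on the wild-type arrays. Both genotypes covered nearly the same range. Their log2 difference was 0.01 (SE 0.08; limma adjusted p = 0.973), with a 95% interval from -0.17 to 0.19. The ending of this probe's name marks possible cross-hybridisation, which was not tested. The 2nd Cacna1b probe, 1460608_at, gave 0.08.

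A 3rd Cacna1b probe, 1439612_at, read 9.24, 9.19 and 9.85 on the knockout arrays, against 9.11, 9.41 and 9.33 on the wild-type arrays. Knockout array 6 alone stood above the other 5. The log2 fold change of 0.14 became -0.07 without that array. The dim probe 1425812_a_at gave -0.15.

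Cacna1e encodes the R-type pore, the remaining member of the subfamily that beta-gamma dimers inhibit. Its probe 1436260_at read 11.97, 11.76 and 11.94 on the knockout arrays, against 11.88, 11.80 and 11.76 on the wild-type arrays. The ranges overlapped, since knockout array 5 sat as low as wild-type array 3. The log2 fold change was 0.08 (SE 0.08; limma adjusted p = 0.801), with a 95% interval from -0.10 to 0.25. The second probe, 1421692_at, lay at the 29.8th percentile and gave -0.05.

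Cacna1c and Cacna1d encode L-type pores, which open for longer and couple calcium entry to gene expression. For Cacna1c, 1421297_a_at read 10.05, 10.44 and 10.05 on the knockout arrays, against 10.29, 9.88 and 10.34 on the wild-type arrays. Knockout array 5 was highest and wild-type array 2 lowest, with the other arrays of both genotypes between them. For this probe the log2 fold change was 0.01 (SE 0.15; limma adjusted p = 0.995). The steadier Cacna1c probe, 1435730_at, had an SD of 0.02 in knockout and 0.10 in wild type and gave -0.04, with a 95% interval from -0.24 to 0.17.

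For Cacna1d, 1427974_s_at read 12.48, 12.24 and 12.36 on the knockout arrays, against 12.40, 12.40 and 12.30 on the wild-type arrays. All 3 wild-type values fell inside the knockout range. The log2 fold change was -0.01 (SE 0.07; limma adjusted p = 0.987), and the 95% interval, from -0.17 to 0.16, was the narrowest of the 28. The other probe, 1428051_a_at, was dim, at the 10.5th percentile. It read 3.18, 3.26 and 3.21 on the knockout arrays, against 3.52, 3.48 and 3.24 on the wild-type arrays, a log2 fold change of -0.20 (unadjusted p = 0.0668; limma adjusted p = 0.668). Wild-type array 3 lay within the knockout range there.

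Cacna1g and Cacna1h encode T-type pores, which open near the resting potential and support burst firing; Cacna1g is strongly expressed in Purkinje cells and in deep cerebellar nuclei. Probe 1423365_at, the single Cacna1g probe, read 9.53, 9.47 and 9.90 on knockout arrays 4, 5 and 6, against 9.24, 9.40 and 9.30 on wild-type arrays 1, 2 and 3. All 3 knockout arrays lay above all 3 wild-type arrays, with knockout array 6 the highest. The means were 9.63 ± 0.23 in knockout and 9.31 ± 0.08 in wild type (SD, n = 3 each).

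The Cacna1g log2 fold change was 0.32 (SE 0.13), a knockout level 1.25 times that of wild type, with a 95% interval from 1.02 to 1.53 times. Its unadjusted limma p was 0.0342 and its limma adjusted p 0.644, so it did not pass. Without knockout array 6 the value was 0.19 (unadjusted p = 0.122 in limma). With that array and without any other single array it lay between 0.28 and 0.40. The unadjusted limma p was also above 0.05 without wild-type array 1 (0.0952) and without wild-type array 3 (0.0820). None of the 5 Purkinje cell genes measured passed, and their log2 fold changes ran from -0.13 to 0.06. The mean of those 5 genes lay from 12.41 to 12.73 on the knockout arrays and from 12.49 to 12.69 on the wild-type arrays. No marker list covered the deep cerebellar nuclei, and the part of cell numbers in the Cacna1g value was not tested.

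Cacna1h had the largest value among the members. Its probe 1422710_a_at read 7.18, 7.59 and 7.60 on the knockout arrays, against 6.71, 7.37 and 7.29 on the wild-type arrays. Knockout array 4 lay below 2 wild-type arrays, and wild-type array 1 was the lowest of all. The log2 fold change was 0.33 (SE 0.20; limma adjusted p = 0.702), with a 95% interval from -0.12 to 0.79. Without wild-type array 1 it was 0.13. The dimmer probe 1427607_at gave 0.12, and 0.03 without knockout array 6.

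**Figure D2:**
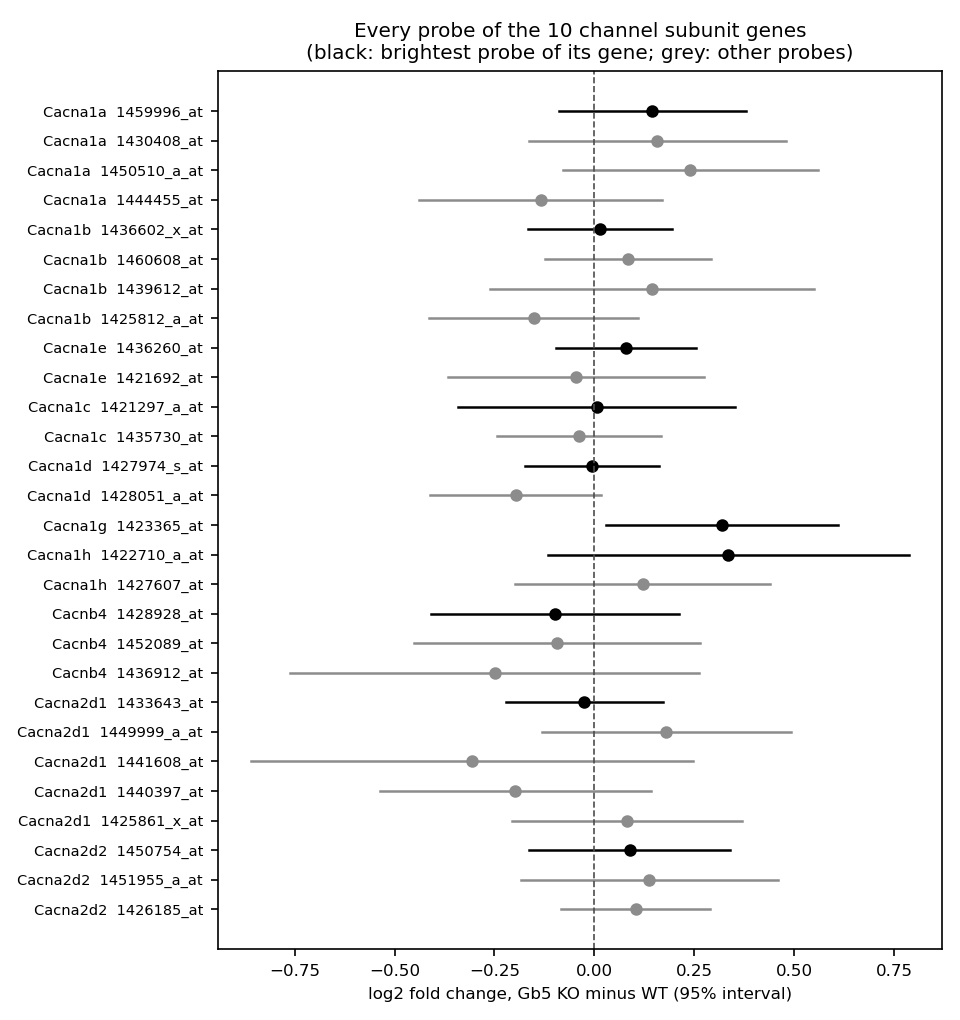
Log2 fold change, knockout minus wild type, of all 28 probes with its 95% interval from the limma fit on 6 arrays; black marks the brightest probe of each gene. The interval of Cacna1g, from 0.03 to 0.61, is the only one that leaves out 0, and it does so without adjustment for the 45037 probes tested.

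Cacnb4 encodes the beta subunit that is prominent in the cerebellum, where it escorts P/Q-type pores to the membrane. Its brightest probe, 1428928_at, read 11.59, 11.07 and 11.24 on the knockout arrays, against 11.58, 11.35 and 11.27 on the wild-type arrays. Knockout array 4 was the highest of all 6, knockout array 5 the lowest. The log2 fold change was -0.10 (SE 0.14; limma adjusted p = 0.864), with a 95% interval from -0.41 to 0.21.

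All 3 Cacnb4 probes gave values below 0, the other pair -0.09 (1452089_at; -0.02 without knockout array 6) and -0.25 (1436912_at). The last read 10.65, 9.68 and 10.06 on the knockout arrays, against 10.57, 10.47 and 10.10 on the wild-type arrays, and its knockout SD of 0.48 was about as wide as its whole wild-type range. Knockout arrays 4 and 5 were the highest and the lowest of the 6. Its log2 fold change was -0.03 without knockout array 5 and -0.51 without knockout array 4, and neither passed.

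Cacna2d1 and Cacna2d2 encode alpha2delta subunits, extracellular proteins that raise the number of channels at the membrane; Cacna2d2 is typical of Purkinje cells. The brightest Cacna2d1 probe, 1433643_at, read 11.89, 12.00 and 11.86 on the knockout arrays, against 12.04, 11.77 and 12.02 on the wild-type arrays. The knockout values lay inside the wild-type range, with a difference of -0.03 in log2 signal (SE 0.09, limma adjusted p = 0.950). Without knockout array 6 the difference was 0.00483.

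The 5 Cacna2d1 probes disagreed in sign, from -0.31 to 0.18. Probe 1441608_at read 7.04, 6.15 and 7.06 on the knockout arrays, against 7.27, 7.01 and 6.88 on the wild-type arrays. Knockout array 5 alone set the difference: the log2 fold change of -0.31 was -0.00500 without it, and -0.46 without knockout array 6. Probe 1440397_at was also lowest on knockout array 5, at 6.16. On the same array 1449999_a_at was at its highest, at 10.82 against 10.40 and 10.65 on the other knockout arrays and 10.20 to 10.60 on the wild-type arrays. So probes of 1 gene stood at opposite ends on that array. The dim probe 1425861_x_at, at the 18.8th percentile, gave 0.08, and 0.17 without knockout array 6.

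For Cacna2d2, 1450754_at read 10.62, 10.86 and 10.70 on the knockout arrays, against 10.45, 10.66 and 10.81 on the wild-type arrays. The genotypes overlapped, and differed by 0.09 in log2 signal (SE 0.11; limma adjusted p = 0.846), with a 95% interval from -0.16 to 0.34. Its other probes, at the 37.6th and 4.43rd percentiles, gave 0.14 and 0.10. Cacna2d2 is the only member on the chromosome that holds Gnb5, with the starts of 220 protein-coding genes between them in the RefSeq gene order.

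**Figure D3:**
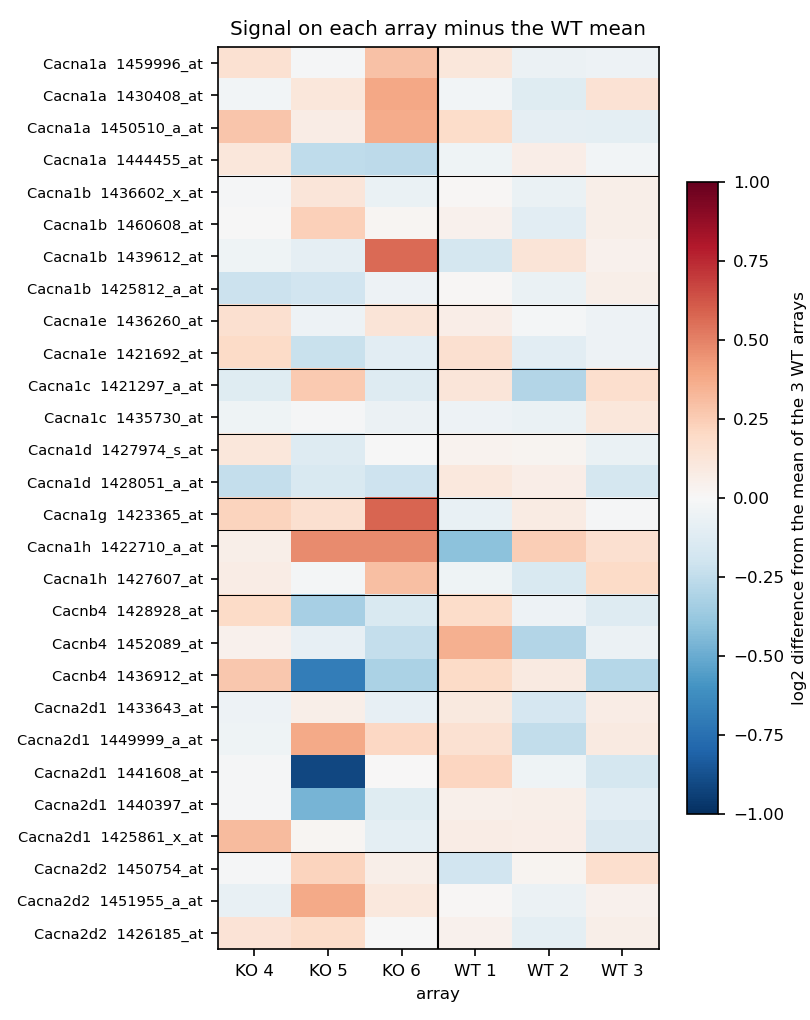
Signal of each of the 28 probes on each array minus the mean of the 3 wild-type arrays (log2), with knockout arrays left of the line and wild-type arrays right of it. Knockout array 6 is the reddest for 3 of the 4 Cacna1a probes, for Cacna1g, for 1 probe of Cacna1b and for the Cacna1h probes. For Cacna1h 1422710_a_at, knockout array 5 is nearly as red. Knockout array 5 is bluer for probes of Cacnb4 and Cacna2d1.

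Whether the members moved together across arrays was not tested. Each of the knockout arrays was the highest of the 6 for 7 probes, and wild-type arrays 1, 2 and 3 for 4, 1 and 2. Wild-type array 2 was the lowest for 10 probes and knockout array 5 for 6. The median deviation of the 28 probes from their own means lay between -0.06 (wild-type array 2) and 0.04, against -0.02 to 0.02 over all probes. How often all probes were highest or lowest on each array was not counted. Probes of 5 genes (Cacna1a, Cacna1b, Cacna1c, Cacna1e and Cacna2d1) gave values on both sides of 0, all probes of Cacna1h and Cacna2d2 lay above 0, and all of Cacna1d and Cacnb4 below. The median over the 17 probes of pore subunits was 0.08 and over the 11 of auxiliary subunits -0.03, with 0 passing in either.

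Over the 6 arrays, the probes whose pattern was most like that of Cacna1a (1459996_at) were those of Hpcal1, Gabrd and Gnl3l, with Pearson's r of 0.993, 0.988 and 0.988. For Cacna1g they were those of Abcf1, Prpf8 and Zfyve27, with r of 0.999, 0.994 and 0.994. With so few arrays and 19281 and 19283 probes compared, high values are common: r exceeded 0.9 for 118 probes with Cacna1a and for 877 with Cacna1g.

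Other genes of the pathway showed no passing probe either. The 4 lists held 69 genes, of which 61 were measured by 138 single-gene probes, and 0 probes passed, with a smallest limma adjusted p of 0.391. An unadjusted p under 0.05 was found for 7 of the 138 (5.07%), against 7.61% of all probes. None of these 7 was the brightest probe of its gene, so they are not among the values below. By the brightest probe of each gene, the median over 12 other channel subunits was 0.08, with 8 above and 4 below 0. The largest values were -0.25 for Cacng7 and -0.22 for Cacng3, relatives of stargazin that accompany AMPA receptors, and 0.19 for Cacng4 of the same family. Knockout array 6 gave the lowest value for both Cacng7 (6.53) and Cacng3 (6.81), and the genotypes overlapped in each. Without that array both signs turned, to 0.02 for Cacng7 and 0.11 for Cacng3, and the list had 10 genes above and 2 below 0 with a median of 0.11.

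Channel modulators and terminal partners (17 measured) had a median of 0.03. The largest values were 0.29 for Stx1a, a release-machinery protein that binds the N- and P/Q-type pores, -0.27 for the calmodulin-like regulator Cabp1, and 0.25 for Rem2, a small GTPase that inhibits the channels. Without knockout array 6 these were 0.20, -0.12 and 0.17. Calcium stores, pumps, exchangers and calcium-activated potassium channels (19 measured) had a median of 0.02, with -0.22 for the plasma membrane pump Atp2b4, 0.21 for the release channel Ryr3 and 0.19 for the calcium buffer Calb2. Without knockout array 6 these were -0.15, 0.09 and 0.10. Among 13 G protein subunits, the median was 0.07, with 0.22 for Gnb2, a beta subunit that forms the dimers described above, 0.14 for Gnao1, the alpha subunit of Go, and 0.14 for Gnb3.

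**Figure D4:**
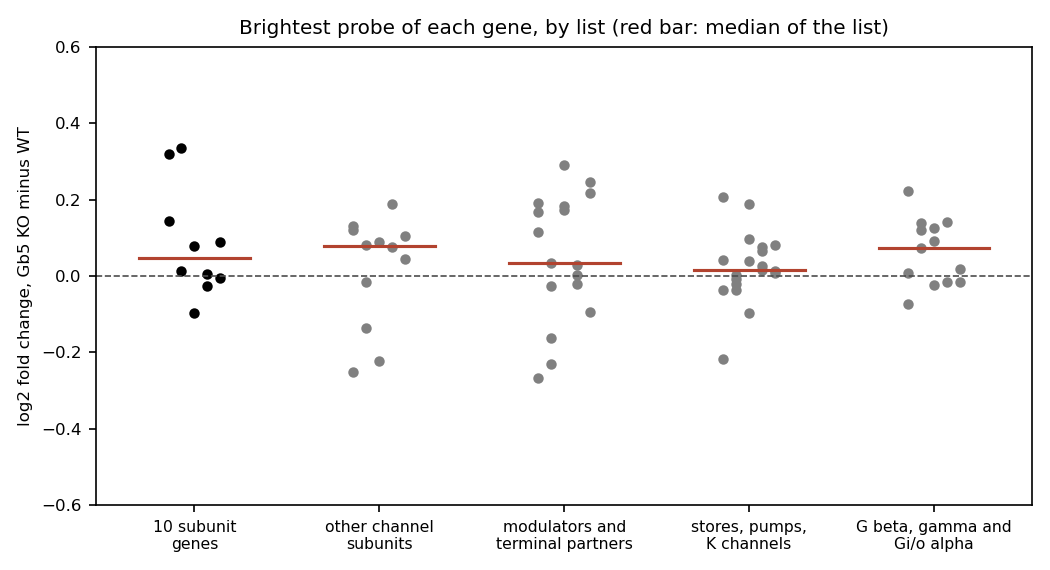
Log2 fold change, knockout minus wild type, of the brightest probe of each gene for the 10 subunit genes (black) and the 4 other lists (grey); red bars are list medians. All points lie between -0.27 and 0.33, and the medians between 0.02 and 0.08.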

How the data were processed

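Values for 45101 probes were deposited on a log2 scale, and 64 control probes were left out. The authors used RMA and Partek, per the submitters' processing notes. RMA corrects background, brings the arrays to 1 distribution and summarises each probe set, so a shift shared by all genes is removed. Versions, detection calls and scan dates were not given in the sources used here. Groups came from the sample labels.

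Probes were named through the platform annotation (34945 with 1 gene, 932 with several, 9160 with none listed), and 34741 of the single-gene probes were named through Entrez identifiers in RefSeq (GRCm38.p6), used for names and gene order. The brightest probe of a gene had the highest mean over the 6 arrays; a percentile is the rank of that mean among all probes. Brightness also depends on the probe, so a percentile places a probe as dim or bright and does not compare levels between genes.

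Each of 45037 probes was fitted in limma 3.58.1 (R 4.3.3), as knockout minus wild type, with eBayes moderation that follows mean signal, two-sided p-values, Benjamini-Hochberg adjustment over all probes, a threshold of 0.05 and no filter. The step was tested on simulated data, where a high rate of calls was required only for shifts far larger than any member value. An exact permutation of 3 against 3 arrays cannot give p below 0.1, so none was used. The number of arrays limits the precision. Members, lists and tests were chosen with earlier results of these data known; named genes are all members, Gnb5, the 3 largest changes of each of the 4 pathway lists and the 3 most similar patterns for Cacna1a and Cacna1g. Cell type markers served to check the tissue. Listed genes with no single-gene probe were not analysed here. Alternatives were filters at the 30th and 50th percentile, further normalization, other variance models, 1 value per gene, each array left out, and an adjusted p of 0.1. Pathway values without knockout array 6 were added after seeing the data.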

Additional observations from a re-analysis of the deposited data

How the results depend on the processing

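No member probe passed an adjusted p of 0.05 in any of the 16 alternatives, the one with a threshold of 0.1 included, and neither did a probe of the other pathway lists. Over all probes, 10 passed; the count was 4 with the 50th percentile filter, 17 with array medians subtracted, 16 with array weights, 16 at an adjusted p of 0.1, and from 6 (without knockout array 6 or wild-type array 3) to 24 (without wild-type array 1) with single arrays left out; without knockout array 4 it was 16. Member probes with an unadjusted p under 0.05 numbered 1, 2 after a second quantile normalization (Cacna1g and Cacna1d 1428051_a_at), and from 0 to 3 with single arrays left out: 0 on leaving out knockout array 6 or wild-type array 1, and 3 on leaving out knockout array 4 (Cacna1g, Cacna1h 1422710_a_at and Cacnb4 1436912_at). Of the 28 probes, 17 kept their direction in each alternative that gave them a value (11 to 15 per probe, since filtered or merged probes have none), and 11 changed sign in at least 1. Without single arrays these ran from -0.0403 to 0.0534 (Cacna1b 1436602_x_at), -0.0694 to 0.26 (Cacna1b 1439612_at), -0.17 to 0.0427 (Cacna1e 1421692_at), -0.14 to 0.0902 (Cacna1c 1421297_a_at), -0.0721 to 0.0181 (Cacna1c 1435730_at), -0.0673 to 0.0544 (Cacna1d 1427974_s_at), -0.24 to 0.0192 (Cacnb4 1428928_at), -0.24 to 0.0835 (Cacnb4 1452089_at), -0.11 to 0.0234 (Cacna2d1 1433643_at), -0.0384 to 0.17 (Cacna2d1 1425861_x_at) and -0.00717 to 0.17 (Cacna2d2 1450754_at). With array medians subtracted, Cacna1b 1436602_x_at was -0.0127 and Cacna1c 1421297_a_at -0.0203. Array weights gave -0.0190 and -0.0778, and 0.0223 for Cacna1d 1427974_s_at, which was 0.0175 after a second quantile normalization. The mean of both Cacna1c probes gave -0.0170. Without knockout array 6, an alternative chosen after seeing the data, Cacng7 was 0.0180 and Cacng3 0.11. The cause was not tested. No paired analysis was possible because the genotypes share no replicate numbers in the labels. The number of arrays limits how small a shift can be seen, and without detection calls the signal of dim probes over background is unknown.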
